A study of Rattus norvegicus with 6 samples.

Results

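Axon guidance ligands and receptors are the secreted and membrane-bound cues, and the receptors that read them, by which growing axons are attracted or repelled. They were taken from the deposited table as every gene whose symbol names a semaphorin, plexin, neuropilin, Slit, Robo, netrin, Dcc, Unc5, ephrin or Eph receptor. The rule gave 69 of 23091 genes, namely 20 semaphorins, 9 plexins, 2 neuropilins, 3 Slits, 4 Robos, 4 netrins, Dcc with 4 Unc5 receptors, 5 ephrin-A and 3 ephrin-B ligands, 9 EphA and 5 EphB receptors. Messenger RNA had been sequenced from regenerated sciatic nerve of male wild-type Sprague-Dawley rats, all of which had a sciatic nerve defect. In the NC group (3 libraries, NC 1 to NC 3) the wound was closed with no treatment. In the other group (3 libraries, here implant 1 to implant 3) GDNF-Gel/HA-Mg was implanted, a conduit for nerves whose name includes glial cell line-derived neurotrophic factor. The labels give neither the age of the rats nor the time after surgery, and they do not say that each library came from its own animal. The p-values therefore rest on the spread among these samples alone, and this may be technical. No group received a conduit without GDNF, so parts of the material cannot be told apart.

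Semaphorins signal through plexins, with neuropilins as co-receptors for the secreted class 3. Slits signal through Robos, netrins through Dcc and Unc5 receptors, and membrane-bound ephrins through Eph receptors on the neighbouring cell. In a cut nerve these molecules are also made by cells other than neurons. EphB2 on Schwann cells that meets ephrin-B on fibroblasts is known to sort Schwann cells into the cords along which axons regrow. Several members, among them Robo4, EphB4 and Unc5b, are best known from the lining of blood vessels.

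Total counts ran from 15897844 to 18491375 per library. Haemoglobin genes took 1.02% to 25.2% of the counts, with the highest share in NC 3. The labelled tissue held its defining Schwann cell markers in every library. Sox10, which specifies Schwann cells, was at 154, 243 and 21.8 CPM across NC libraries and 179, 122 and 161 CPM across implant libraries, where 3 values always follow the order of the library numbers. It was lowest in NC 3. Rbfox3, a marker of neuron cell bodies, stayed between 0.0723 and 0.435 CPM. CPM are counts scaled to library size, and they do not allow levels of different genes to be ranked, since they are not divided by gene length.

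Of the 69 members, 59 had enough counts to be tested and 10 did not. No member was called different between the groups by edgeR's quasi-likelihood test (0 of 59 at a Benjamini-Hochberg adjusted p under 0.05, smallest adjusted p 0.99997), against 0% of the 13999 genes tested. DESeq2 called no member either, against 0.0786% of the genes. At an unadjusted p under 0.05 edgeR found 2 of 59 members (3.39%), against 1.72% of all genes tested. The groups did not overlap in 2 of 59 members (3.39%), against 5.69% of all genes. Neither share sets the members apart by itself, and both pairs are Sema4d and Sema3c. The log2 fold changes (implant minus NC) were positive in 32 members and negative in 27, with a median of 0.0093, beside -0.013 over all genes tested. They ran from -0.86 in Epha7 to 0.96 in Epha5, both of which had few counts.

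A missing call does not show that the groups were alike. The 95% interval of the fold change excluded a 2-fold difference in either direction for 24 of 59 members (40.7%), and for 65.8% of all genes. It excluded a 4-fold difference for 47 members (79.7%), and for 88.3% of all genes. Standard errors of log2 fold changes had a median of 0.37 in the members and 0.23 over all genes tested.

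**Figure D1:**
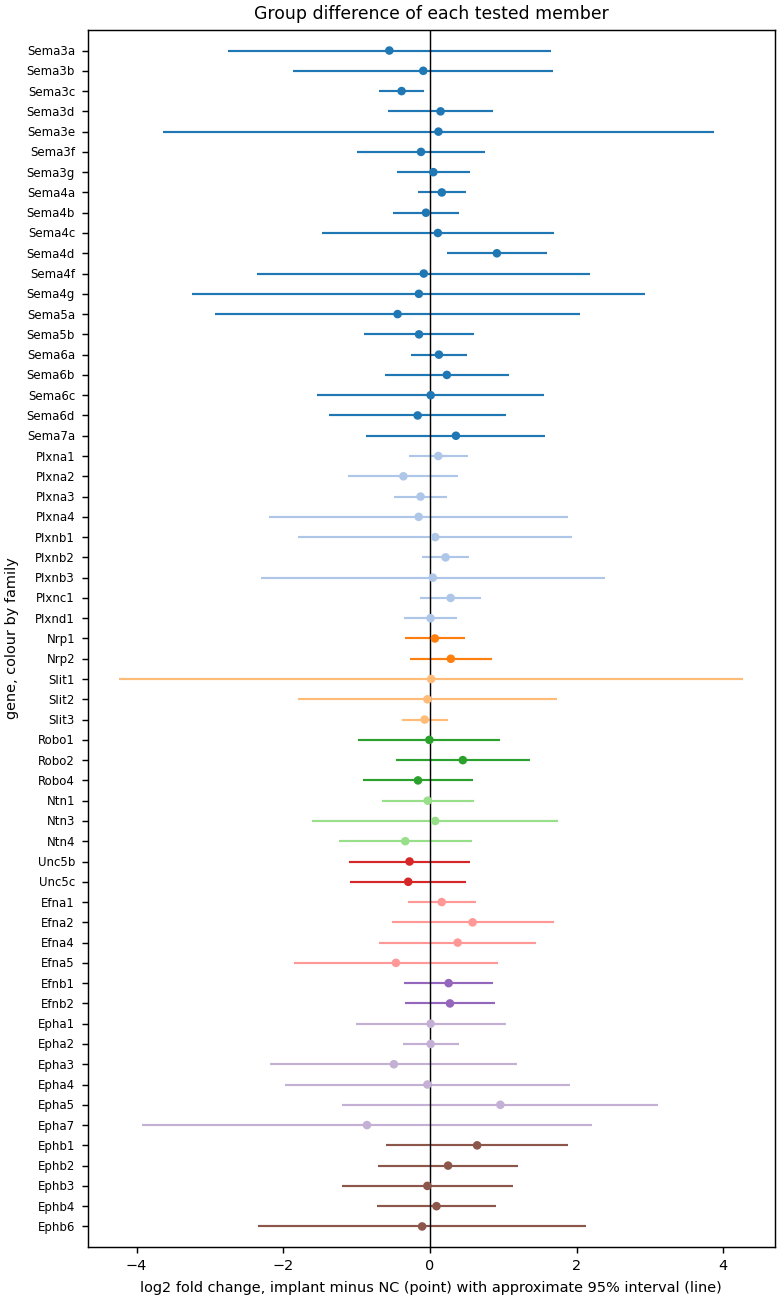
Log2 fold change (implant minus NC, x axis) of each of the 59 tested members (y axis, coloured by family), with its 95% interval as a line. The intervals of Sema4d and Sema3c leave out 0, and those of Slit1 and Sema3e are the widest.

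Sema4d, a transmembrane semaphorin that is the ligand of plexin-B1 and is also made by lymphocytes, had the smallest unadjusted p of the members. It stood at 12.0, 7.05 and 11.7 CPM across NC libraries and 14.9, 24.0 and 18.9 CPM across implant libraries. All 3 implant libraries were above all 3 NC libraries, and NC 2 was the lowest. The means were 10.3 ± 2.78 CPM in NC and 19.3 ± 4.56 CPM in the implant group (SD, n = 3 each). The log2 fold change was 0.91 ± 0.28 (SE) with a 95% interval of 0.23 to 1.59 (edgeR unadjusted p 0.0166, adjusted p 0.99997), higher in 3 of 3 implant libraries. Markers of blood cells were measured beside it. The summed level of the 7 T and NK cell markers, all found and none at 0, was 27.6, 15.4 and 41.0 CPM across NC libraries and 36.6, 61.2 and 24.1 CPM across implant libraries. That of the 6 neutrophil markers, also all found and none at 0, was 42.9, 40.1 and 285 CPM across NC libraries and 209, 334 and 332 CPM across implant libraries, and that of the 7 macrophage markers was 947, 779.9 and 1424 CPM across NC libraries and 836, 1076 and 1182 CPM across implant libraries. All 3 sums overlapped between the groups, and NC 2 was lowest for all of them. The T cell and neutrophil sums were highest in implant 2, as was Sema4d, though implant 3 was close to implant 2 in the neutrophil sum. Not every marker went with its sum. Cd3e and Mmp8 were highest in NC 3, and Mmp9 in implant 3, at 80.4 CPM against 2.93 CPM in implant 2. Of the neutrophil markers, Csf3r alone did not overlap between the groups, and edgeR did not call it. It stood at 8.15, 4.91 and 21.6 CPM across NC libraries and 25.5, 41.5 and 21.8 CPM across implant libraries. The part of any of these cells in the Sema4d difference was not tested.

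Sema3c, a secreted semaphorin that acts through neuropilins and plexin-D1, went the other way. It stood at 241, 289 and 254 CPM across NC libraries and 207, 199.6 and 192 CPM across implant libraries. Every implant library lay below every NC library, and the values within each group were close. The means were 261 ± 24.6 CPM in NC and 199.7 ± 7.38 CPM in the implant group (SD, n = 3 each). The log2 fold change was -0.39 ± 0.13 with a 95% interval of -0.70 to -0.075 (edgeR unadjusted p 0.0228, adjusted p 0.99997), lower in 3 of 3 implant libraries. Without single libraries the log2 fold change of Sema3c ran from -0.43 to -0.31 and that of Sema4d from 0.70 to 1.08, and no such run called either gene.

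**Figure D2:**
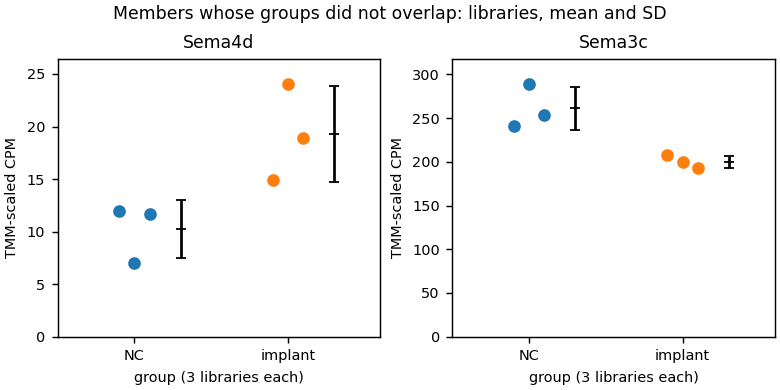
Scaled CPM (y axis) of Sema4d and Sema3c in the 3 NC and 3 implant libraries (points), with the mean and SD of each group (bars). Sema4d lies between 7.05 and 12.0 in NC and between 14.9 and 24.0 with the implant, and Sema3c between 241 and 289 and between 192 and 207.

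The receptors of these cues overlapped between the groups. Plexin-B2 (Plxnb2), another receptor of class 4 semaphorins, stood at 207, 173 and 176 CPM across NC libraries and 217, 205 and 222 CPM across implant libraries. Plxnc1, the receptor of Sema7a, stood at 12.2, 14.7 and 10.9 CPM across NC libraries and 15.9, 13.5 and 16.6 CPM across implant libraries. In both genes the implant values lay mostly above the NC values and 1 NC library fell among them, with log2 fold changes of 0.21 ± 0.13 and 0.28 ± 0.17 (edgeR unadjusted p 0.151 and 0.149). Plxnd1, the plexin of blood vessels that binds Sema3e, was among the steadiest members at 272, 220.3 and 268 CPM across NC libraries and 254, 277 and 233 CPM across implant libraries. Its highest value was 1.26 times its lowest, and its log2 fold change had a 95% interval of -0.35 to 0.37. Plxna3, a signalling partner of neuropilins, stood at 16.4, 17.6 and 15.0 CPM across NC libraries and 16.1, 12.9 and 15.7 CPM across implant libraries and was similarly steady.

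The larger differences lay between libraries of the same group. The SD of log2 CPM over the 6 libraries had a median of 0.51 in the 59 tested members and of 0.28 over all genes tested. It was above 1 in 15 members (25.4%) and in 8.45% of all genes. The lowest library was NC 3 for 23 members (39.0%, against 24.8% of all genes) and NC 2 for 20 (33.9%, against 21.8%). Implant 1 was lowest for 0 members, against 9.41% of all genes. The highest library was NC 2 for 15 members (25.4%, against 25.4% of all genes), NC 3 for 13 (22.03%, against 24.8%) and NC 1 for 14 (23.7%, against 12.9%). It was implant 1 for 10 (16.9%, against 10.03%), implant 2 for 3 (5.08%, against 15.1%) and implant 3 for 4 (6.78%, against 11.8%). The 59 members took 47 different orders of the 6 libraries, and the most common order was held by 5 of them. Efna2, Nrp2 and Sema7a (5.08% of members, against 0.293% of all genes) had the order of the summed neuron markers. This sum was at 37.0, 82.2 and 26.7 CPM across NC libraries and 103, 37.2 and 76.2 CPM across implant libraries, with Snap25 and Syt1 at 0 in some libraries. No single marker of the list had that order. Nefl and Nefm were highest in implant 1, Map2 and Syt1 in NC 1, Stmn2 in implant 3, and Rbfox3 and Snap25 in implant 2. NC 1 and implant 2 were close in the sum, and Efna2 had 10 to 39 counts per library. In whole nerve, fewer cells of a type and less RNA per cell cannot be told apart.

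**Figure D3:**
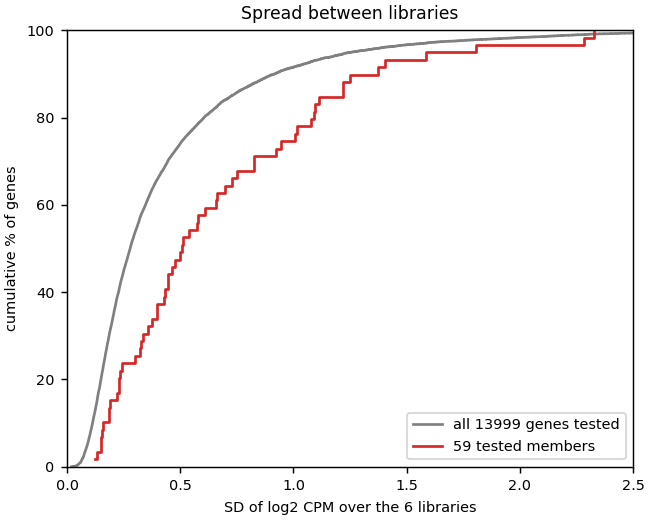
Cumulative percentage of genes (y axis) by the SD of log2 CPM over the 6 libraries (x axis) for the 59 tested members and for all 13999 genes tested. The curve of the members lies to the right, with medians of 0.51 and 0.28.

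**Figure D4:**
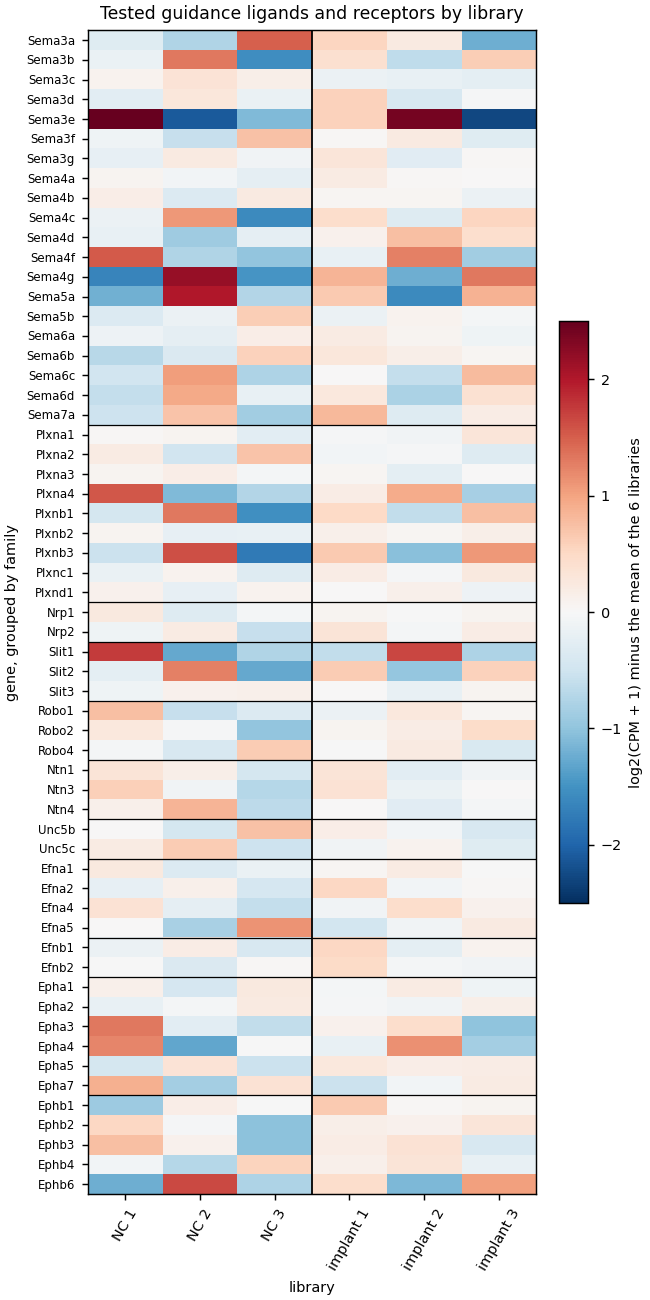
Level of each tested member (rows, grouped by family) in each library (columns), as log2(CPM + 1) minus the mean of the 6 libraries. Sema3e, Sema4f, Plxna4, Slit1 and Epha4 are high in NC 1 and implant 2, and Sema4g, Sema5a, Plxnb3 and Ephb6 in NC 2, implant 1 and implant 3.

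A first pattern joined members that were highest in NC 2, several semaphorins and 2 of the 3 B plexins among them. Sema5a, a transmembrane semaphorin that binds plexin-B3, stood at 59.6, 559 and 82.6 CPM across NC libraries and 218, 45.2 and 253 CPM across implant libraries. Sema4g stood at 2.86, 53.8 and 3.33 CPM across NC libraries and 20.8, 4.18 and 29.1 CPM across implant libraries. Sema3b, a secreted semaphorin, stood at 292, 828 and 111 CPM across NC libraries and 438, 213 and 505 CPM across implant libraries. In each of these genes NC 2, implant 3 and implant 1 were the highest libraries in that order, and the highest value was 12.4, 18.8 and 7.43 times the lowest.

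Plxnb1 and Plxnb3 had the same leading libraries, while Plxnb2, given above, was lowest in NC 2. Plxnb1, the receptor of Sema4d, stood at 29.0, 101 and 13.1 CPM across NC libraries and 57.0, 25.8 and 68.0 CPM across implant libraries. Plxnb3 stood at 17.3, 80.0 and 6.80 CPM across NC libraries and 40.5, 11.8 and 54.8 CPM across implant libraries. Neither followed the group difference of Sema4d, and their log2 fold changes were 0.072 ± 0.77 and 0.039 ± 0.96. Plxnb1, Plxnb3, Sema3b, Sema4c and Sema6c had one order of all 6 libraries, which 2.12% of all genes tested also had.

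Ephb6, an Eph receptor without kinase activity, stood at 11.3, 88.7 and 15.9 CPM across NC libraries and 38.0, 12.1 and 57.5 CPM across implant libraries. Slit2, the best known repellent that binds Robo1 and Robo2, stood at 77.3, 220.4 and 37.2 CPM across NC libraries and 143, 46.4 and 138 CPM across implant libraries. Both were highest in NC 2, and implant 1 and implant 3 came next. The same 3 libraries led for Sema6d at 48.2, 141 and 63.8 CPM across NC libraries and 88.0, 41.7 and 95.8 CPM across implant libraries. Sema5a and Sema6d had the same order of the 6 libraries as Mbp, which encodes myelin basic protein, an order found in 1.16% of all genes tested.

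The summed level of the 8 markers of myelinating Schwann cells, all found and none at 0, was 880.0, 35366 and 2495 CPM across NC libraries and 14464, 859 and 17644 CPM across implant libraries. It was highest in NC 2, implant 3 and implant 1, as were the genes just described. The same 3 libraries led for the 7 Schwann lineage markers, at 925, 3635 and 776 CPM across NC libraries and 1905, 707 and 2034 CPM across implant libraries, and for the perineurial markers, at 1248, 3315 and 1121 CPM across NC libraries and 2012, 1120.4 and 3959 CPM across implant libraries. Of the latter 5 of 6 were found, but Lypd2 had 0 counts in all 6 libraries and added nothing to the sum. The part of any of these cells in the pattern was not tested. The groups overlapped for every gene of the pattern, and its members' fold changes were small beside their errors, as for Sema5a (-0.44 ± 1.02) and Sema4g (-0.15 ± 1.27). Without NC 2 the log2 fold changes were 1.27 for Sema5a, 2.54 for Sema4g, 0.93 for Sema3b, 1.40 for Ephb6 and 0.92 for Slit2. Without implant 2 they were 0.031, 0.34, 0.21, 0.32 and 0.34, all turned from negative to positive, with no call.

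A second pattern joined members that were highest in NC 1 and next in implant 2. Sema3e, a secreted semaphorin that binds plexin-D1 without a neuropilin, stood at 122, 4.05 and 8.96 CPM across NC libraries and 31.1, 112 and 3.42 CPM across implant libraries. Each group thus held high and low libraries, and the highest value was 35.6 times the lowest. Plxna4, which carries the signal of Sema3a and of class 6 semaphorins, stood at 77.3, 11.4 and 15.0 CPM across NC libraries and 29.4, 49.9 and 13.9 CPM across implant libraries. Sema4f, a transmembrane semaphorin known for its part in the contact of Schwann cells with axons, stood at 29.1, 5.14 and 4.19 CPM across NC libraries and 8.08, 23.6 and 4.66 CPM across implant libraries.

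Slit1 and the EphA receptors Epha3 and Epha4 shared these leading libraries. Slit1 had 136, 0 and 6 counts across NC libraries and 10, 122 and 7 across implant libraries. In NC 2 its count of 0 allows up to 0.173 CPM, so that its level in NC 1 was at least 40.7-fold higher than in NC 2. Epha4, the receptor that binds ephrins of both classes, stood at 38.0, 5.78 and 15.7 CPM across NC libraries and 13.8, 36.0 and 8.25 CPM across implant libraries. Epha3 stood at 18.9, 5.72 and 4.27 CPM across NC libraries and 7.67, 9.94 and 3.01 CPM across implant libraries, high in NC 1 and next in implant 2.

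Plxna4 and Slit1 had the same order of the 6 libraries as Gap43, a growth-associated protein (0.479% of all genes tested). For Slit1 the order below NC 1 and implant 2 rests on only 0 to 10 counts per library. Sema4f and Ephb3 had that of Ngfr, a marker of denervated Schwann cells (0.521%), and Sema3e that of Jun, which drives their repair state (0.479%). The summed level of the 8 markers of repair or denervated Schwann cells, all found and none at 0, was 949, 324 and 284 CPM across NC libraries and 540.2, 856 and 255 CPM across implant libraries, highest in NC 1 and implant 2. Ngfr and Jun made up most of this sum, and 6 of the 8 markers had these 2 leading libraries. Shh went the other way at 0.623, 22.5 and 2.39 CPM across NC libraries and 26.2, 0.380 and 3.66 CPM across implant libraries, lowest in implant 2 and NC 1, and Olig1 was near 0, at 0.156 to 0.795 CPM. The summed level of the 8 fibroblast markers, all found and none at 0, was also highest in NC 1 and implant 2, over a narrower range. It was 18782, 14884 and 18050.1 CPM across NC libraries and 15599, 18375 and 11733 CPM across implant libraries, with NC 3 close to implant 2. Of these markers only Pdgfra, Col1a1 and Pi16 had these 2 leading libraries. Col3a1 and Clec3b were highest in NC 3 and Dcn in NC 2, while Lum was next highest in implant 1 and Ly6c in NC 3. The part of any of these cells in the pattern was not tested. The log2 fold changes of this pattern had wide errors, as in Sema3e (0.12 ± 1.54), Plxna4 (-0.15 ± 0.84) and Slit1 (0.015 ± 1.75). Without NC 1 the log2 fold changes were 2.92 for Sema3e, 3.60 for Slit1 and 0.87 for Epha4, and without implant 2 they were -1.39, -2.33 and -0.85. Leaving out NC 2 also turned Sema3e to -0.43 and Slit1 to -0.57, as did NC 3 with -0.39 and -0.49, and no such run called a gene.

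**Figure D5:**
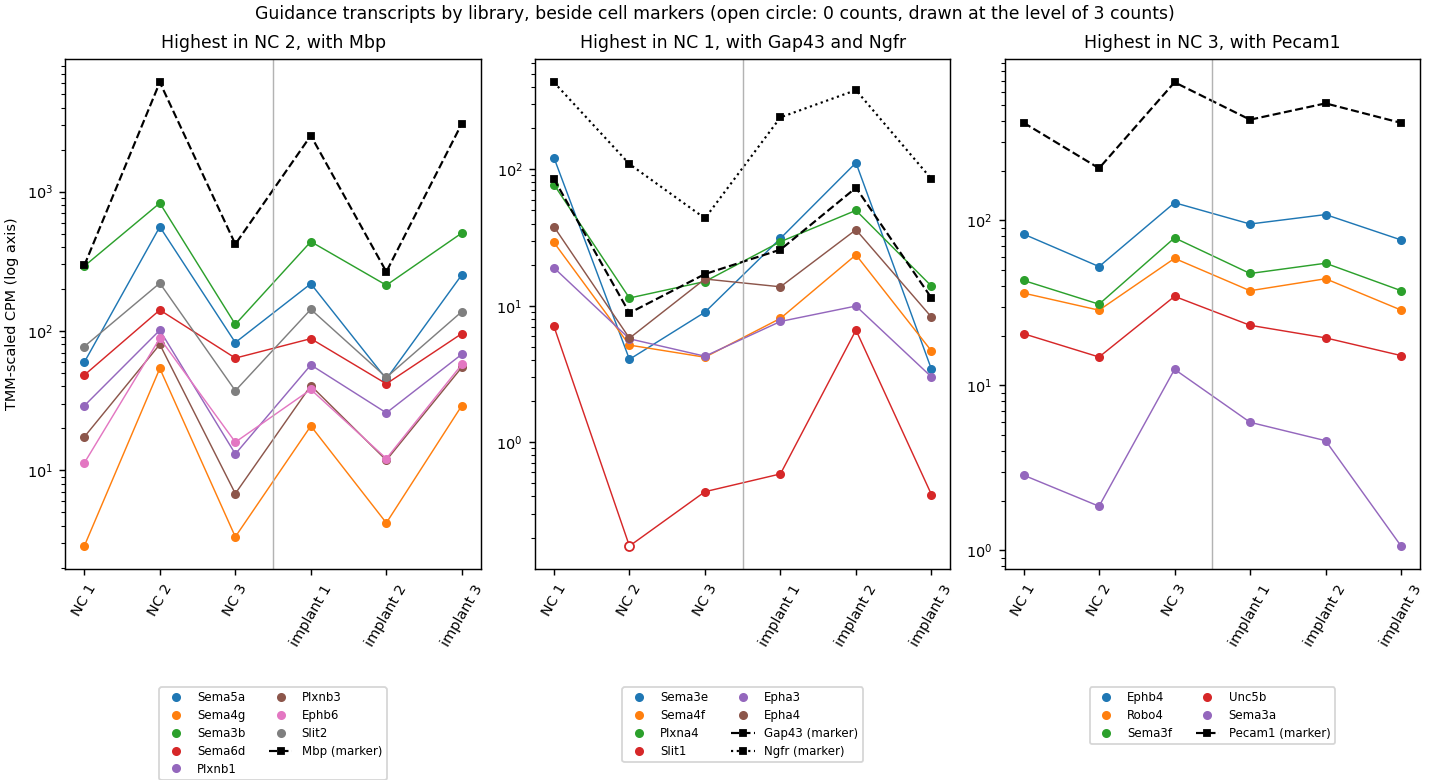
Scaled CPM on a log axis (y axis) in each library (x axis, NC left of the grey line) of members highest in NC 2, NC 1 and NC 3 (coloured points), beside marker genes (black squares). An open circle marks a count of 0, drawn at the level of 3 counts. The left members rise with Mbp in NC 2, implant 1 and implant 3, and the middle members with Gap43 in NC 1 and implant 2.

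Promoters of members from both patterns are shown because their genes moved together over libraries. They come from RefSeq (build GRCr8, which is not known to be the build of the deposited table), and 55 of the 69 members matched a promoter of 300 bases. Each runs 5′ to 3′ along the gene from 250 bases before to 50 bases after the start. Capitals mark matches, on either strand, to the SOX core ACAAAG, the AP-1 motif TGANTCA, the EGR motif GCGNGGGCG and the TEAD motif GGAATG. Plxnb1 (chr8:118622911-118623210, plus strand) and Plxnb3 (chrX:156646624-156646923, plus strand) belong to the first pattern, and Sema3e (chr4:21510325-21510624, minus strand) and Sema4f (chr4:116995393-116995692, minus strand) to the second.
Plxnb1: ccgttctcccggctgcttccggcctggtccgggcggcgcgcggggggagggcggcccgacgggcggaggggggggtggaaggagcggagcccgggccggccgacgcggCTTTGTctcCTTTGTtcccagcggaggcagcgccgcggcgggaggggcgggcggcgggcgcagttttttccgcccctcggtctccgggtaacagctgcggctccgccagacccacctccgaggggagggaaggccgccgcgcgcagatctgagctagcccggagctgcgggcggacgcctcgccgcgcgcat
Plxnb3: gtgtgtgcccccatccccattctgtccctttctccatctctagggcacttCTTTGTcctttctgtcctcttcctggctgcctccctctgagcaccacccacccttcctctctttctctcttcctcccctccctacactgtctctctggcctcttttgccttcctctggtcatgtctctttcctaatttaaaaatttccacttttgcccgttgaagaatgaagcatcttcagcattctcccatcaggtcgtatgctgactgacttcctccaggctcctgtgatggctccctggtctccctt
Sema3e: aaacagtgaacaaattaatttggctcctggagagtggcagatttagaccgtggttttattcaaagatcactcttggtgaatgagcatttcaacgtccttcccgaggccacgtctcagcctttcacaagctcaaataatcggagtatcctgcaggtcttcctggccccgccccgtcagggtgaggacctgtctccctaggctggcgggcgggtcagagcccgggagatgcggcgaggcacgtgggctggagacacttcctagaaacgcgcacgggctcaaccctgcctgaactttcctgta
Sema4f: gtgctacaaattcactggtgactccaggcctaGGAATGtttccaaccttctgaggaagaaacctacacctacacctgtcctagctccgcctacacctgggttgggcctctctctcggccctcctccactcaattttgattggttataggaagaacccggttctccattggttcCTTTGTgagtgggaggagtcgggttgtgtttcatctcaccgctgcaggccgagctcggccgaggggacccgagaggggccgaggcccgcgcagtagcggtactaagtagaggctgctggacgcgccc
The Plxnb1 promoter held 2 SOX cores, that of Plxnb3 held 1, and that of Sema4f held 1 with 1 TEAD motif, at no overlap. The Sema3e promoter held none of the 4 motifs. Over all 33469 promoters of this length, 18.8% held the SOX core, 7.33% the AP-1 motif, 4.98% the EGR motif and 14.2% the TEAD motif. Among the 55 member promoters the shares were 12.7%, 1.82%, 14.5% and 10.9%, while their median GC content was 63.7% against 51.7% in all. A match of letters is a description only.

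Of the 13 members highest in NC 3 (22.03%, against 24.8% of all genes), some are receptors of blood vessels. Plxnd1, the plexin of blood vessels given above, was highest in implant 2. Epha1, Epha2, Efna5, Plxna2, Sema4b, Sema5b, Sema6b and Slit3 were also highest in NC 3. Robo4, the Robo of endothelial cells, stood at 36.2, 28.6 and 58.8 CPM across NC libraries and 37.5, 44.3 and 28.6 CPM across implant libraries. Ephb4, the Eph receptor of veins, stood at 82.6, 52.5 and 128 CPM across NC libraries and 95.1, 108 and 76.1 CPM across implant libraries. Sema3f, a secreted semaphorin that binds neuropilin-2, stood at 43.2, 31.0 and 78.4 CPM across NC libraries and 47.6, 55.0 and 37.5 CPM across implant libraries. All 3 genes were highest in NC 3 and lowest in NC 2, though Robo4 was nearly as low in implant 3, and their groups overlapped. Without NC 3 the log2 fold changes were 0.18 for Robo4 and 0.46 for Ephb4, beside -0.16 ± 0.31 and 0.089 ± 0.33 with all libraries.

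Ephb4, Robo4 and Sema3f had the same order of the 6 libraries as Pecam1, an endothelial adhesion molecule, an order held by 0.757% of all genes tested. Pecam1 stood at 391, 207 and 687 CPM across NC libraries and 408, 512 and 390.0 CPM across implant libraries. Of the 7 endothelial markers 6 were found, none at 0, with a summed level of 1033, 657 and 1616 CPM across NC libraries and 1068, 1257 and 976 CPM across implant libraries, in that same order. Pecam1 is itself a large part of this sum. Tek and Egfl7 also had its order, while Cdh5, Kdr and Emcn did not. Emcn was highest in implant 2 and lowest in implant 3. The summed level of the 7 adipocyte markers, all found and none at 0, was also highest in NC 3 and lowest in NC 2. It was 2699, 1145 and 7934 CPM across NC libraries and 1462, 2469 and 1834 CPM across implant libraries. Of these markers Plin1 alone was lowest elsewhere, in implant 1. The macrophage sum given beside Sema4d was highest in NC 3 and lowest in NC 2 as well. Of its markers, Cd68 and Csf1r were highest in implant 3 and Aif1 in implant 2, and Cd68 was lowest in NC 1. NC 3 had the highest haemoglobin share too. The part of any of these cells was not tested. Unc5b, a netrin receptor of vessels, stood at 20.6, 14.9 and 34.6 CPM across NC libraries and 23.1, 19.4 and 15.2 CPM across implant libraries, also highest in NC 3 and lowest in NC 2, and its log2 fold change of -0.28 ± 0.34 turned to 0.11 without NC 3. Sema3a, the classic repellent of sensory axons, stood at 2.86, 1.85 and 12.5 CPM across NC libraries and 5.97, 4.62 and 1.06 CPM across implant libraries, highest in NC 3 and lowest in implant 3. In RefSeq, Robo4 overlaps Robo3 and Ephb4 overlaps Zan. Of members given elsewhere, Sema5a overlaps LOC134485782 and Sema6a overlaps LOC120098258. The library kit does not mark strand, so shared reads cannot be assigned.

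The neuropilins, which both class 3 semaphorins and vascular endothelial growth factor bind, did not differ beyond their spread. Nrp1 stood at 186, 126 and 153 CPM across NC libraries and 164, 158 and 165 CPM across implant libraries. Nrp2 stood at 181, 224 and 130.1 CPM across NC libraries and 244, 188 and 220.3 CPM across implant libraries. Nrp2 was lowest in NC 3, and the log2 fold changes were 0.066 ± 0.17 for Nrp1 and 0.28 ± 0.23 for Nrp2. The values of Nrp2, Plxna1 and Sema3b were not whole numbers in the table.

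The remaining semaphorins and plexins were Sema3d, Sema3g, Sema4a, Sema4b, Sema4c, Sema5b, Sema6a, Sema6b, Sema6c, Sema7a, Plxna1 and Plxna2. Among these the groups overlapped in each gene, and log2 fold changes ran from -0.36 in Plxna2 to 0.35 in Sema7a. Sema4a, Sema6a and Plxna1 varied little, their highest value being 1.37, 1.37 and 1.49 times the lowest. Sema4c varied more, at 61.0, 144 and 21.9 CPM across NC libraries and 92.0, 54.0 and 98.9 CPM across implant libraries, with NC 2 highest and NC 3 lowest.

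Slit3, made by fibroblasts and vessel cells, was the member with the smallest SD of log2 CPM (0.12). It stood at 69.5, 80.7 and 82.2 CPM across NC libraries and 76.1, 66.2 and 78.6 CPM across implant libraries, with a log2 fold change of -0.073 ± 0.13. The 3 Slits thus differed in spread, from Slit3 to Slit1, whose SD was 2.33. Among the receptors, Robo1 stood at 22.2, 8.27 and 9.90 CPM across NC libraries and 11.5, 15.5 and 13.2 CPM across implant libraries, and Robo2 at 10.9, 8.67 and 3.98 CPM across NC libraries and 9.37, 10.2 and 12.6 CPM across implant libraries. Robo1 was highest in NC 1, Robo2 was lowest in NC 3, and neither group stood apart. Their log2 fold changes were -0.008 ± 0.40 and 0.45 ± 0.37.

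Netrin-1 (Ntn1), which attracts axons through Dcc and repels them through Unc5 receptors, stood at 214, 188 and 125 CPM across NC libraries and 214, 141 and 160.5 CPM across implant libraries. Ntn4, a netrin of basement membranes, stood at 33.9, 56.5 and 19.4 CPM across NC libraries and 31.4, 25.5 and 30.1 CPM across implant libraries. Both were lowest in NC 3 and overlapped between the groups, with log2 fold changes of -0.031 ± 0.26 and -0.34 ± 0.37. Of their receptors, Unc5c stood at 13.3, 18.2 and 7.74 CPM across NC libraries and 10.7, 12.2 and 9.08 CPM across implant libraries, with a log2 fold change of -0.30 ± 0.32. Dcc itself was close to absent, with 6, 0 and 9 counts across NC libraries and 0, 12 and 4 across implant libraries. Where it was 0, up to 3 counts are still allowed, and it was too low to be tested. Ntn3 was tested at low counts and was highest in NC 1, with a log2 fold change of 0.071 ± 0.69.

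Ephrin-B ligands were measured in all libraries. Efnb1 stood at 62.0, 78.7 and 52.1 CPM across NC libraries and 99.4, 57.8 and 72.9 CPM across implant libraries, and Efnb2, the ligand of arteries that binds EphB4, at 7.58, 5.78 and 7.88 CPM across NC libraries and 11.1, 7.34 and 7.19 CPM across implant libraries. Implant 1 was the highest library for both, with log2 fold changes of 0.25 ± 0.25 and 0.27 ± 0.25, and the other libraries overlapped. Ephb2, their receptor on Schwann cells in the cut nerve, stood at 26.7, 18.1 and 8.53 CPM across NC libraries and 20.5, 19.9 and 23.1 CPM across implant libraries, lowest in NC 3. Ephb1 stood at 0.935, 3.06 and 2.60 CPM across NC libraries and 4.74, 2.72 and 2.83 CPM across implant libraries, lowest in NC 1, and Ephb3 was highest in NC 1 and lowest in NC 3. The log2 fold changes were 0.25 ± 0.39, 0.64 ± 0.51 and -0.036 ± 0.48 for Ephb2, Ephb1 and Ephb3.

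Ephrin-A ligands, which are anchored to the membrane by a lipid, were also in range. Efna1 stood at 22.2, 14.5 and 16.6 CPM across NC libraries and 19.3, 21.7 and 18.6 CPM across implant libraries, and Efna5 at 6.33, 3.18 and 14.9 CPM across NC libraries and 4.27, 5.81 and 7.55 CPM across implant libraries. Efna5 was highest in NC 3 and lowest in NC 2, while Efna1 varied little. Efna2 stood at 0.986, 1.50 and 0.723 CPM across NC libraries and 2.28, 1.20 and 1.36 CPM across implant libraries. Efna4 stood at 3.48, 1.97 and 1.30 CPM across NC libraries and 2.28, 3.75 and 2.77 CPM across implant libraries. For both, the lowest library was NC 3, and the log2 fold changes were 0.58 ± 0.45 and 0.38 ± 0.44.

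Of the EphA receptors, Epha2 was steady at 16.5, 18.4 and 22.3 CPM across NC libraries and 18.5, 17.9 and 21.2 CPM across implant libraries, with a 95% interval of the log2 fold change of -0.37 to 0.39. Epha5 had few counts, with 3, 17 and 1 counts across NC libraries and 15, 14 and 13 across implant libraries. It was low in NC 1 and NC 3 only, and its log2 fold change was 0.96 ± 0.88. Without NC 2 it was 2.69 (edgeR unadjusted p 0.00966, adjusted p 0.963), without NC 1 0.59 and without NC 3 0.51, with no call. Epha7 had 45, 0 and 18 counts across NC libraries and 4, 13 and 18 across implant libraries, high in NC 1 and 0 in NC 2, with a log2 fold change of -0.86 ± 1.26. Epha1 overlapped between the groups at a log2 fold change of 0.0093 ± 0.42, and in RefSeq it overlaps Zyx.

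The 10 members that were too low to be tested were Dcc, Unc5a, Unc5d, Efna3, Efnb3, Epha6, Epha8, Epha10, Ntn5 and Robo3. Efnb3 had the highest total of these, with 4, 39 and 2 counts across NC libraries and 9, 7 and 14 across implant libraries. NC 2 alone held 39 of its 75 counts. Unc5a had 3, 2 and 10 counts across NC libraries and 3, 10 and 5 across implant libraries. The totals over all 6 libraries of the others ran from 1 in Epha8 to 31 in Dcc.

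Genes that act with these ligands and receptors were described from 4 lists, and none of their genes was called by edgeR (against 0% of all genes tested). Of 18 semaphorin effectors, all tested, 8 had a positive and 10 a negative log2 fold change, with a median of -0.0086. Rnd1, a GTPase that binds plexins, stood at 3.48, 1.97 and 16.3 CPM across NC libraries and 2.46, 2.99 and 4.01 CPM across implant libraries, highest in NC 3 alone (-1.20 ± 0.80). Fes (0.40 ± 0.24) and Gipc1 (-0.13 ± 0.11) had small differences. Of 15 tested ephrin effectors 9 were positive and 6 negative, with a median of 0.016, and the lowest unadjusted p belonged to Pdzrn3 (-0.37 ± 0.31), Rasa1 (-0.059 ± 0.11) and Vav3 (0.072 ± 0.16).

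Of 14 tested Slit and netrin effectors 7 were positive and 7 negative, with a median of -0.00089, led by Cap2 (0.67 ± 0.60), Bcar1 (-0.13 ± 0.23) and Srgap2 (0.13 ± 0.24). Of 21 tested further cues and co-receptors 13 were positive and 8 negative, with a median of 0.091, led by Neo1 (-0.14 ± 0.14), a relative of Dcc, Cdon (-0.15 ± 0.17) and Cxcr4 (0.24 ± 0.27).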

How the data were processed

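The deposited file holds estimated counts (expected counts) for each gene in 6 libraries; the authors left them unnormalized, judging by column totals. Per the labels' protocols, mRNA was enriched on oligo(dT) beads before library preparation with a NEBNext Ultra RNA kit, which keeps no strand information. The submitters' processing notes list Bowtie2 2.2.8, HISAT2, StringTie 1.3.1 and DESeq2 without saying what each did. The counter, build and annotation were not given in the sources used here. Columns were assigned by name: the Con columns went to NC as the only control group, and the Gel_HA-Mg columns, which lack the word GDNF, went to the one group that contains this material.

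Values were rounded to whole numbers. filterByExpr left 13999 of 23091 genes. These were scaled by TMM and tested two-sided with the quasi-likelihood test of edgeR 4.0.16 (R 4.3.3) for group alone, with Benjamini-Hochberg adjustment over all of them. CPM use the scaled library size. Standard errors were derived from the fold change and its F statistic, and 95% intervals from the t distribution with the fit's degrees of freedom. SDs of log2 CPM use a prior count of 2. A count of 0 was taken to allow up to 3 counts, which covers counting error only. No library pair agreed within sampling noise (chi-square per degree of freedom at least 86.4). The procedure was tested on simulated data.

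Members and lists were chosen with earlier results of these data known. Values in every library are given for the 2 tested members per family with the highest mean CPM and the 2 with the smallest p, for members whose groups do not overlap, for the 5 largest and 3 smallest SDs, and for the 3 highest totals among untested members. Other members with library values (Sema3a, Sema3f, Sema4c, Sema4f, Sema6d, Plxna4, Plxnb1 and Plxnb3), the promoters and the comparison of library orders were chosen after values were seen. Of each list of acting genes, the 3 with the smallest p are named, and 1 list is not reported here. Alternatives were RLE and upper quartile scaling, DESeq2 1.42.0, limma-voom (limma 3.58.1), no filter, at least 1 CPM in 3 or more libraries, a replicate block, and leaving out single libraries. Figures were drawn with matplotlib 3.10.9.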

Additional observations from a re-analysis of the deposited data

How the results depend on the processing

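No member and no gene of the 4 lists was called in any alternative. The count over all genes was 0, except for 11 with DESeq2. The number of members at an unadjusted p under 0.05 was 2, or 0 with the replicate block and 0 to 5 without single libraries (5 without NC 2 or NC 3, 0 without implant 2). The median log2 fold change of the tested members was 0.0093, with 0.13 under limma-voom and 0.16 with the replicate block, where Sema4d and Sema3c had unadjusted p of 0.0546 and 0.0885. The replicate numbers were not treated as pairs in the main fit. Same-numbered libraries had correlations of 0.099, -0.72 and 0.055 in their deviations from the group means. Such deviations depend on one another within a group, so these correlations cannot show whether the libraries were paired. Of 37 named members, 14 kept their direction in all alternatives, Sema4d and Sema3c among them. Log2 fold changes with the direction turned were Epha2 -0.0014 and Plxnd1 -0.0042 under RLE scaling, Plxnd1 -0.0041 under DESeq2, Epha4 0.073, Epha7 0.42, Ephb6 0.23, Robo1 0.088, Sema3b 0.30, Sema4g 0.70 and Slit2 0.19 under limma-voom and Ephb6 0.52, Robo1 0.13, Sema3b 0.32, Sema3e -0.15, Sema4g 1.40, Sema5a 0.37 and Slit2 0.29 with the replicate block, and the cause was not tested. The direction of 23 members turned without at least 1 library, over ranges of Efna5 -0.85 to 0.30, Epha2 -0.071 to 0.13, Epha3 -0.86 to 0.48, Epha4 -0.85 to 0.87, Epha7 -1.44 to 0.079, Ephb2 -0.088 to 0.68, Ephb4 -0.18 to 0.46, Ephb6 -0.63 to 1.40, Nrp1 -0.067 to 0.23, Ntn1 -0.23 to 0.15, Ntn4 -0.64 to 0.11, Plxnd1 -0.086 to 0.075, Robo1 -0.27 to 0.58, Robo4 -0.37 to 0.18, Sema3b -0.53 to 0.93, Sema3e -1.39 to 2.92, Sema4g -0.68 to 2.54, Sema5a -0.88 to 1.27, Slit1 -2.33 to 3.60, Slit2 -0.44 to 0.92, Slit3 -0.13 to 0.0037, Unc5b -0.52 to 0.11 and Unc5c -0.56 to 0.013. Those that kept their direction without single libraries also moved, over ranges of Efna1 0.031 to 0.37, Efna2 0.26 to 0.90, Efna4 0.10 to 0.86, Efnb1 0.037 to 0.43, Efnb2 0.048 to 0.38, Epha5 0.51 to 2.69, Ephb1 0.29 to 0.97, Nrp2 0.10 to 0.48, Plxna3 -0.19 to -0.030, Plxnb2 0.16 to 0.32, Plxnc1 0.19 to 0.40 and Robo2 0.13 to 0.78. None was called. Low counts limit Slit1, Epha5, Epha7 and the 10 untested members.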

Other observations

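Of the adhesion molecules listed as co-receptors of guidance cues, some had the leading libraries of the first pattern and others did not. All are named here after their values were seen. Nfasc, which encodes neurofascin of the node of Ranvier, stood at 6.44, 218 and 16.3 CPM across NC libraries and 92.0, 6.74 and 119 CPM across implant libraries. Nrcam, its partner at the node, stood at 15.7, 69.7 and 5.71 CPM across NC libraries and 43.7, 8.48 and 42.1 CPM across implant libraries, and the adhesion molecule Alcam at 67.5, 204 and 41.4 CPM across NC libraries and 155, 43.5 and 145 CPM across implant libraries. These 3 genes were highest in NC 2 and had their next highest values in implant 1 and implant 3, the libraries in which the markers of myelinating Schwann cells were also highest. L1cam was highest in NC 1, at 86.3, 83.9 and 14.2 CPM across NC libraries and 81.9, 53.9 and 61.2 CPM across implant libraries, and Chl1 in implant 1, at 175, 252 and 36.9 CPM across NC libraries and 259, 129 and 162 CPM across implant libraries. Cntn1 and Cntn2 were highest in NC 3. Crmp1, a cytoplasmic mediator of semaphorin signals, stood at 5.81, 1.33 and 0.651 CPM across NC libraries and 2.28, 5.33 and 0.825 CPM across implant libraries, and Draxin, a secreted cue that binds Dcc, at 3.48, 0.347 and 0.434 CPM across NC libraries and 0.644, 2.50 and 0.590 CPM across implant libraries. Crmp1 and Draxin were highest in NC 1 and implant 2, as was Sema3e. The groups overlapped for all of these genes, and none was called by edgeR's quasi-likelihood test.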
